A study of Arabidopsis thaliana with 3 samples.

Results

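The RPP5 locus on chromosome 4 of Arabidopsis thaliana is a cluster of immune receptor genes, represented here by 8 genes chosen by locus tag: RPP4 (AT4G16860), SNC1 (AT4G16890), AT4G16900, AT4G16920, AT4G16940, RPP5 (AT4G16950), AT4G16960 and RLM3 (AT4G16990). They were 8 of the 37899 nuclear genes of the gene table, and all 8 were protein-coding, lay on chromosome 4 and lay in the arm, 3.38 Mb from the centromeric part. Regions enriched for the histone variants H2A.W.6 and H2A.W.7 were located within these genes, in the stretches between them and in 5 kb beyond the first and the last gene, a span of 87104 bp. The chromatin came from leaves 2 to 3 weeks old, 4 g per immunoprecipitation, digested with micrococcal nuclease, an enzyme that cuts the DNA between nucleosomes. There was 1 library for the H2A.W.6 immunoprecipitation, 1 for that of H2A.W.7 and 1 control library, and all 3 carried the same labels of age and tissue, with no treatment. No ecotype or genotype is named in the sources used here. Each list gives positions and no signal height, which leaves the depth unknown, and no value has a replicate error and no p-value is given. No expression was measured, so the leaf label was not checked against marker genes.

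Plant immune receptors of the TIR-NBS-LRR class are intracellular proteins that detect pathogen molecules and trigger defence, and they often lie in tandem clusters of related genes mixed with transposon remnants. RPP4 and RPP5 are known for resistance to the downy mildew pathogen Hyaloperonospora arabidopsidis. SNC1 is known for a mutant form that keeps defence on and stunts growth, and RLM3, which carries a TIR domain, is known for resistance to necrotrophic fungi. H2A.W variants are known to mark the heterochromatin of plants, which in chromosome arms is mostly found on transposons and other repeats. The series concerns the DNA damage response in heterochromatin and in euchromatin, and H2A.W.7 is the variant known to be phosphorylated in heterochromatin upon damage.

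Both variants were present in the cluster, in few places. Across the span, 4 H2A.W.6 regions covered 1505 bp or 1.73%, and 11 H2A.W.7 regions covered 4469 bp or 5.13%, which was 2.97 times the H2A.W.6 length. The H2A.W.6 regions were 255 to 625 bp long with a median of 312.5 bp, and the H2A.W.7 regions were 205 to 1480 bp long with a median of 415 bp. Over all arms, the lists covered 2.39% with H2A.W.6 and 4.70% with H2A.W.7, with median region lengths of 360 and 395 bp. The cluster as a whole was therefore below the arm mean for H2A.W.6 and slightly above it for H2A.W.7.

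**Figure D1:**
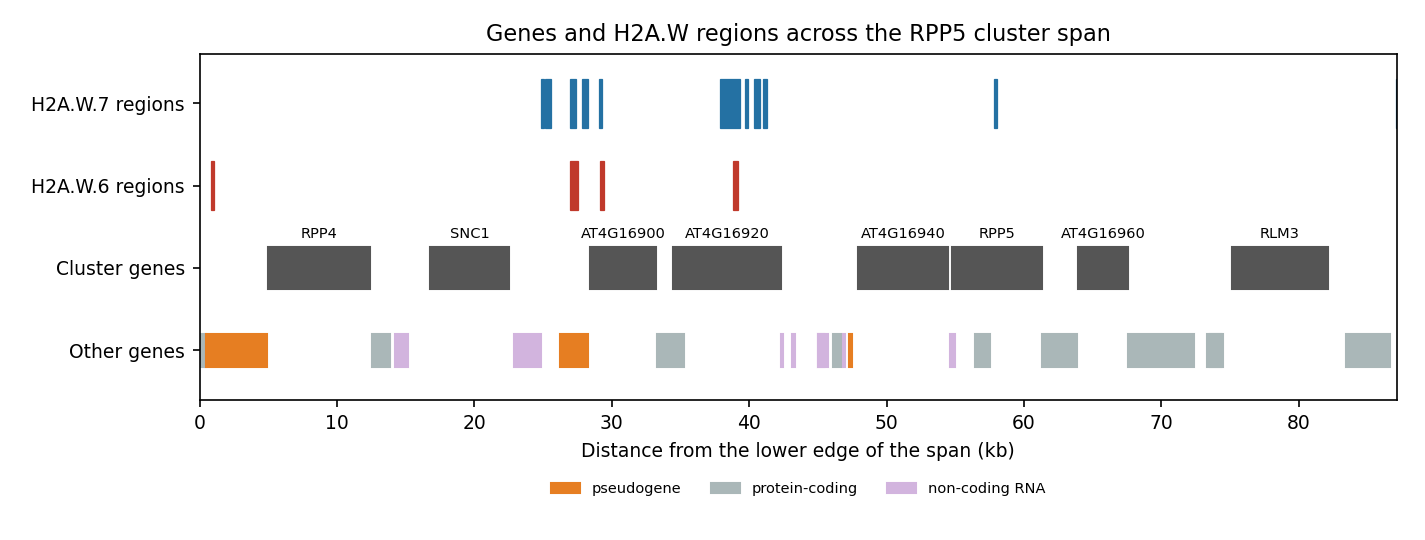
Map of the cluster span, with distance from its lower edge in kb on the horizontal axis and 1 row each for H2A.W.7 regions, H2A.W.6 regions, the 8 cluster genes and other annotated genes. Most regions lie between SNC1 and the higher end of AT4G16920, and the bodies of RPP4 and SNC1 hold none.

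Most of this cover lay in the middle of the cluster. The stretch from 9508351 to 9524730 of chromosome 4 (positions in TAIR10, counted from 1) held 9 regions of H2A.W.7 out of 11 and 3 of H2A.W.6 out of 4. This run was delimited after its values were seen, as H2A.W.7 regions with no gap over 9000 bp. It made up 18.8% of the span and held 93.0% of the H2A.W.7 bases and 83.1% of the H2A.W.6 bases. Within it H2A.W.7 covered 25.4% and H2A.W.6 covered 7.63%. The run was not continuous: from 9512721 to 9521305, between the regions in AT4G16900 and those in AT4G16920, 8585 bp held no H2A.W.7. The limit of 9000 bp lies just above that gap. H2A.W.6 had a gap of 9380 bp there, from 9512916 to 9522295. In the rest of the span the cover was 314 bp or 0.444% for H2A.W.7 and 255 bp or 0.361% for H2A.W.6. The run starts beyond SNC1 and ends inside AT4G16920, so 2 cluster genes lay on its lower side, 2 met it and 4 lay on its higher side.

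**Figure D2:**
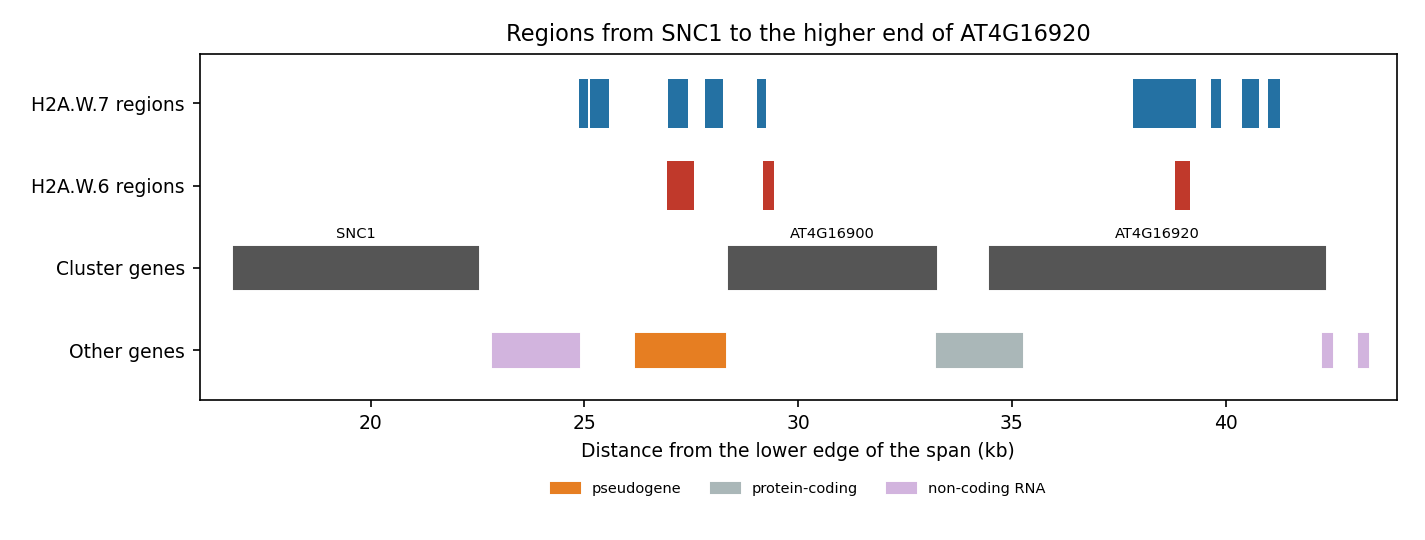
Enlarged map from SNC1 to just past AT4G16920, with distance from the lower edge of the span in kb and rows for both variants, cluster genes and other genes. All 3 H2A.W.6 regions here touch an H2A.W.7 region, while 6 of the 9 H2A.W.7 regions do not touch H2A.W.6.

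RPP4 and SNC1 had no base of either variant. RPP4 spans 7372 bp, and the nearest region was one of H2A.W.6 at a distance of 3935 bp, with the nearest H2A.W.7 region 12513 bp away. SNC1 spans 5702 bp, and the nearest H2A.W.7 region was 2378 bp beyond its higher edge, with H2A.W.6 at 4433 bp. Both genes lay in a stretch of 68080 bp without H2A.W.7, from 9440271 to 9508350. Of the 7740 gaps between H2A.W.7 regions in the arms, 265 or 3.42% were as long. For H2A.W.6, the gap that held them was 25875 bp, and 19.4% of the 3972 arm gaps were as long.

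AT4G16920 carried most of the H2A.W.7 inside gene bodies. Of its 7851 bp, H2A.W.7 covered 2405 bp or 30.6%, in 4 regions at 9521306 to 9522785, 9523136 to 9523370, 9523841 to 9524255 and 9524456 to 9524730. The first of these was 1480 bp long, the longest of the span, and 367 of the 7750 arm H2A.W.7 regions (4.74%) were as long. From its first to its last base, this series of regions ran over 3425 bp, of which 70.2% was covered, and began 3356 bp from the lower edge and ended 1070 bp from the higher edge of the gene. H2A.W.6 covered 345 bp or 4.39% of the gene, at 9522296 to 9522640, wholly inside the longest H2A.W.7 region. These 4 H2A.W.7 regions made up 53.8% of the H2A.W.7 bases of the span, and without them H2A.W.7 in all 8 bodies fell from 2870 to 465 bp. The table holds no exons, introns or strand, so where in the transcript these regions lie was not analysed here.

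AT4G16900, the neighbour on the lower side, had both variants at similar length. An H2A.W.6 region at 9512636 to 9512915 covered 280 bp or 5.80% of its 4830 bp, and an H2A.W.7 region at 9512511 to 9512720 covered 210 bp or 4.35%. They shared 85 bp and lay 777 and 652 bp inside the lower edge of the gene. Among the 8 genes, this was the only body in which H2A.W.6 covered more bases than H2A.W.7, and both regions were short, since 69.0% of all H2A.W.6 regions in the arms, and 96.5% for H2A.W.7, were as long or longer.

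RPP5 itself had H2A.W.7 without H2A.W.6. A region of 255 bp at 9541276 to 9541530 covered 3.91% of its 6523 bp, from 46.7% to 50.6% of the way along the body. The nearest H2A.W.6 region was 15592 bp away. AT4G16940 on its lower side, AT4G16960 on its higher side and RLM3 had no base of either variant, and their nearest H2A.W.7 regions were 3357, 5871 and 4941 bp away. These 3 genes and RPP5 lay in a stretch of 52280 bp without H2A.W.6. Of the arm gaps, 11.7% were as long, a share of their number and not of arm length.

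**Figure D3:**
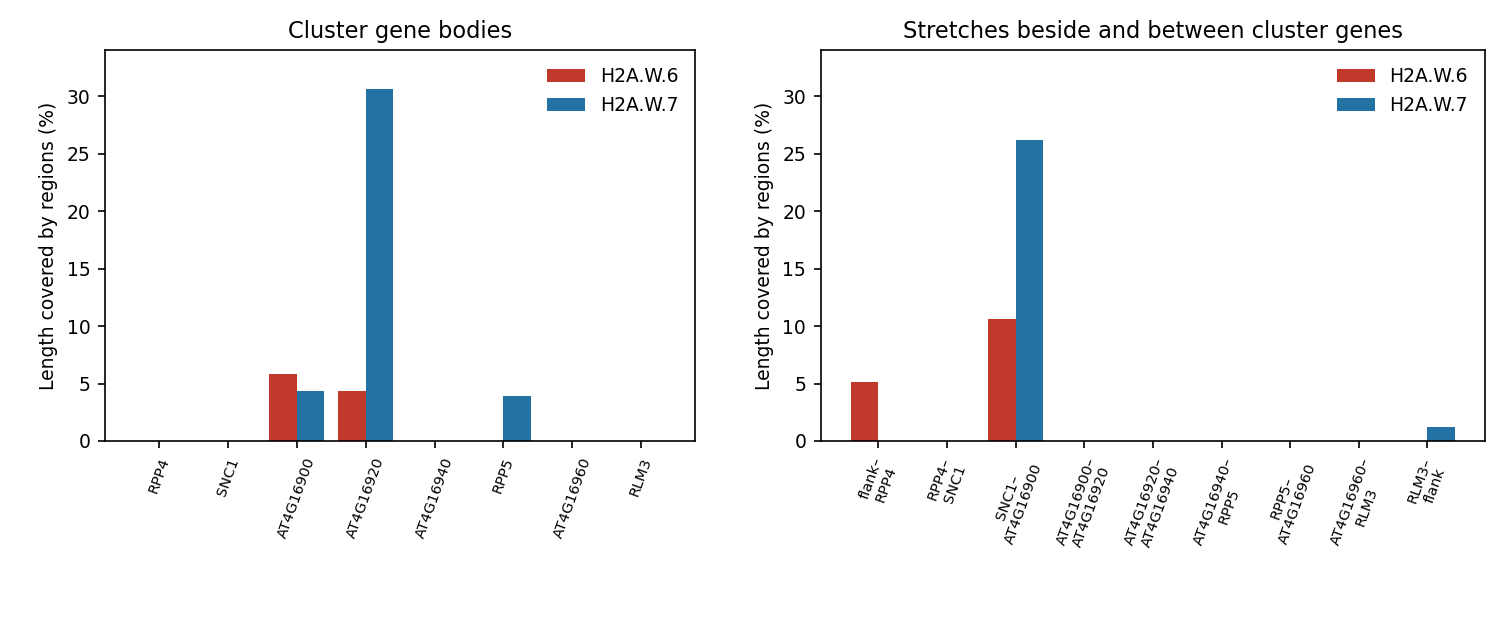
Share of length covered by H2A.W.6 and H2A.W.7 regions, in percent, for each of the 8 gene bodies and for each of the 9 stretches beside and between them, in order along the chromosome. H2A.W.7 reaches 30.6% in AT4G16920 and 26.2% between SNC1 and AT4G16900, and most other bars are at 0.

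Counted by genes, 2 of the 8 had any H2A.W.6 base and 3 of the 8 any H2A.W.7 base. Over all 25344 arm protein-coding genes these shares were 2.51% and 4.99%, and over the 4022 that are as long as AT4G16960, the shortest of the 8, they were 2.56% and 4.95%. The 8 genes are neighbours, AT4G16900 and AT4G16920 lie side by side in the same run of regions, and the counts are small, so they describe a single place in the genome and were not tested. The median cover of the 8 genes was 0% for both variants. None of the 8 had 50% or more of its body covered, against 1.05% of the arm protein-coding genes for H2A.W.6 and 1.82% for H2A.W.7. Of the 4014 other genes of that length, 29 had as large a share under H2A.W.7 as AT4G16920, 138 as AT4G16900 and 146 as RPP5. For H2A.W.6, 55 had as large a share as AT4G16900 and 77 as AT4G16920.

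The counts rested in part on short regions. With regions below 300 bp left out, AT4G16920 was the 1 gene left with H2A.W.6 and the 1 gene left with H2A.W.7. At an overlap of 100 bp the counts were 2 and 3. They were also 2 and 3 when 1 kb on each side of the body was added, a setting at which the shares of all arm protein-coding genes rose to 6.16% and 18.7%.

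Every region that met a cluster gene lay wholly inside its body, at least 777 bp from an edge for H2A.W.6 and at least 652 bp for H2A.W.7. Among all arm protein-coding genes of that length with any base covered, 78 of 103 had their H2A.W.6 regions wholly inside and 115 of 199 their H2A.W.7 regions. AT4G16920, with 4 H2A.W.7 regions in its body, was among 17 of the 4022 long genes with 4 or more. In the 1 kb on the higher side of the 8 genes there was no base of either variant. On the lower side, 172 bp of H2A.W.6 and 452 bp of H2A.W.7 were found, all beside AT4G16900.

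Between the genes, cover was found in 1 of the 7 inner stretches. The 5886 bp between SNC1 and AT4G16900 held 1540 bp of H2A.W.7 (26.2%) in 4 regions and 625 bp of H2A.W.6 (10.6%) in 1 region, with 455 bp in both. At its lower side, 2 H2A.W.7 regions at 9508351 to 9508555 and 9508591 to 9509045, 35 bp apart, met no annotated gene. At its higher side lies the pseudogene AT4G16910, which met the H2A.W.6 region at 9510406 to 9511030 and the H2A.W.7 regions at 9510431 to 9510885 and 9511291 to 9511715. H2A.W.6 covered 30.0% and H2A.W.7 covered 42.2% of its 2085 bp. Over the 762 pseudogenes of the arms, H2A.W.6 lay on 60.3% of the bases and H2A.W.7 on 56.2%.

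The other inner stretches, of 314 to 7542 bp, had no base of either variant. That holds for the stretch between AT4G16920 and AT4G16940, which carries 7 annotated genes, 5 of them long non-coding RNA genes and 1 the pseudogene AT4G16935. In the lower flank, an H2A.W.6 region of 255 bp at 9484276 to 9484530 lay in the pseudogene AT4G16870 and covered 5.74% of it, with no H2A.W.7. In the higher flank, 59 bp of an H2A.W.7 region at 9570511 to 9571055 entered the span beyond RLM3. Of the 21 other annotated genes that reach into the span, 2 met H2A.W.6 and 1 of these also met H2A.W.7, all among the 3 pseudogenes. Of the 10 protein-coding genes 0 met either, beside 2.51% and 4.99% of all arm protein-coding genes for H2A.W.6 and H2A.W.7. These counts are too small to compare the classes.

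The variants shared 885 bp of the span, which was 58.8% of the H2A.W.6 bases and 19.8% of the H2A.W.7 bases. Over all arms the shared bases were 81.7% of H2A.W.6 and 41.6% of H2A.W.7, so both shares were lower in the cluster. Shared bases lay at 3 places, AT4G16910, AT4G16900 and AT4G16920. H2A.W.7 alone covered 3584 bp and H2A.W.6 alone 620 bp. The series has 1 control library, whose use in making the lists is not known here, and receptor genes of a tandem cluster resemble each other. The part of reads from similar copies was not tested.

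Set beside windows of the same length laid end to end along the arms, the cluster was above the middle for both variants. Of 1075 windows, 31.1% had more H2A.W.6 than the cluster and 30.4% had more H2A.W.7. The median window had 0.350% H2A.W.6 and 2.70% H2A.W.7, and 395 windows had no H2A.W.6. In the 143 windows of the same arm, the medians were 0.327% and 2.23%, and 41 and 40 windows had more than the cluster.

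**Figure D4:**
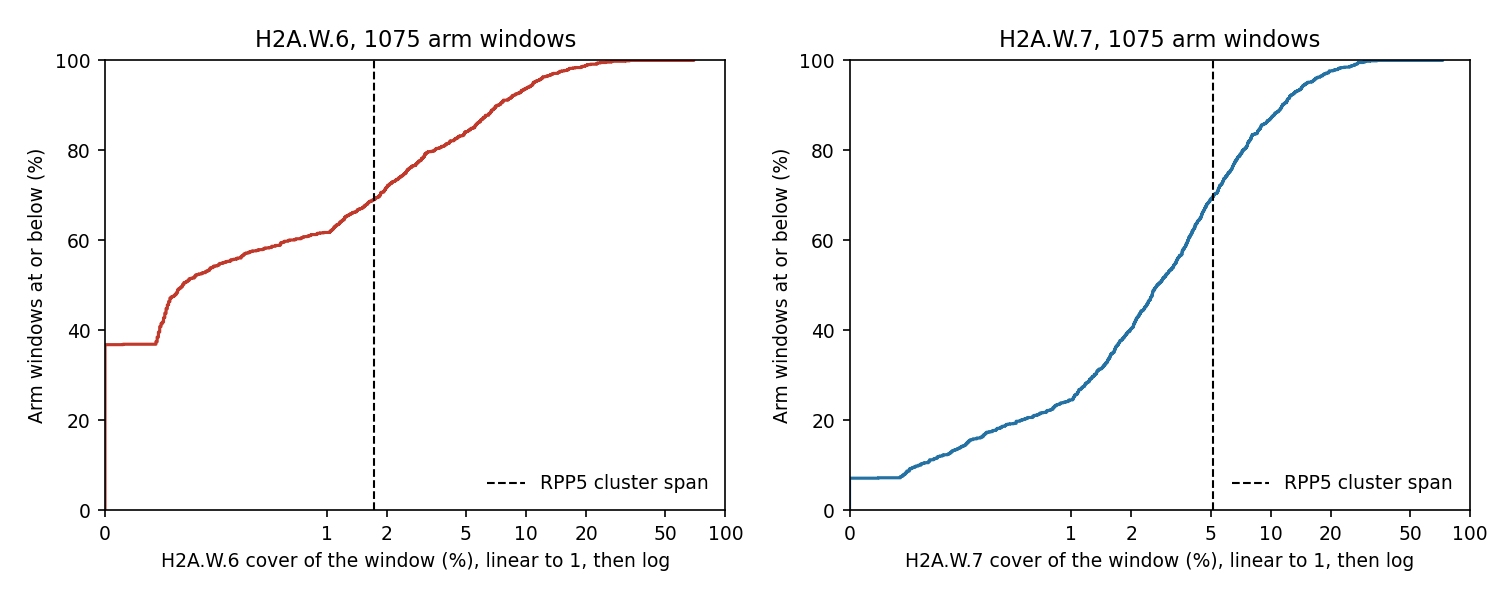
Cumulative share of the 1075 arm windows, in percent, against the cover of each window with H2A.W.6 (left) and H2A.W.7 (right), in percent on an axis that is linear up to 1 and logarithmic above. The dashed line marks the cluster span at 1.73% and 5.13%, with 31.1% and 30.4% of windows to its right.

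For comparison, 3 other clusters of resistance genes were treated by the same rule. The RPP1 cluster on chromosome 3 had 0 of 4 gene bodies with any base, while its stretches between genes were covered to 12.3% by H2A.W.6 and 24.2% by H2A.W.7. The RPS6 and VICTR cluster on chromosome 5 had no region of either variant in 46890 bp. The RLM1 cluster on chromosome 1 had H2A.W.7 in 1 of 7 bodies, at 9.35% of AT1G63870, and H2A.W.6 in 0 of 7. Over all arm protein-coding genes, 2.51% had any H2A.W.6 base and 4.99% any H2A.W.7 base. With so few genes, counts of 0 do not set a cluster apart from other arm genes. In the RPP5 cluster, 64.2% of the H2A.W.7 bases lay in gene bodies, where H2A.W.7 covered 5.80%, against 4.25% of the stretches between them. That order rested on AT4G16920 and on the flank: without the regions in that gene the bodies were covered to 0.940%, and with a flank of 10 kb the stretches were covered to 6.06%, above the bodies. For H2A.W.6, 1.26% of the bodies and 2.34% of the stretches were covered. The other spans differ in length and in the number of other genes they hold, and the differences were not tested. Distance to the centromeric part, 3.38 Mb for the RPP5 cluster, was not matched either. On chromosome 3, the arm window on each side of that part had more of both variants than the RPP5 cluster. Whether the RPP1 cluster differs from its own surroundings was not tested.

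**Figure D5:**
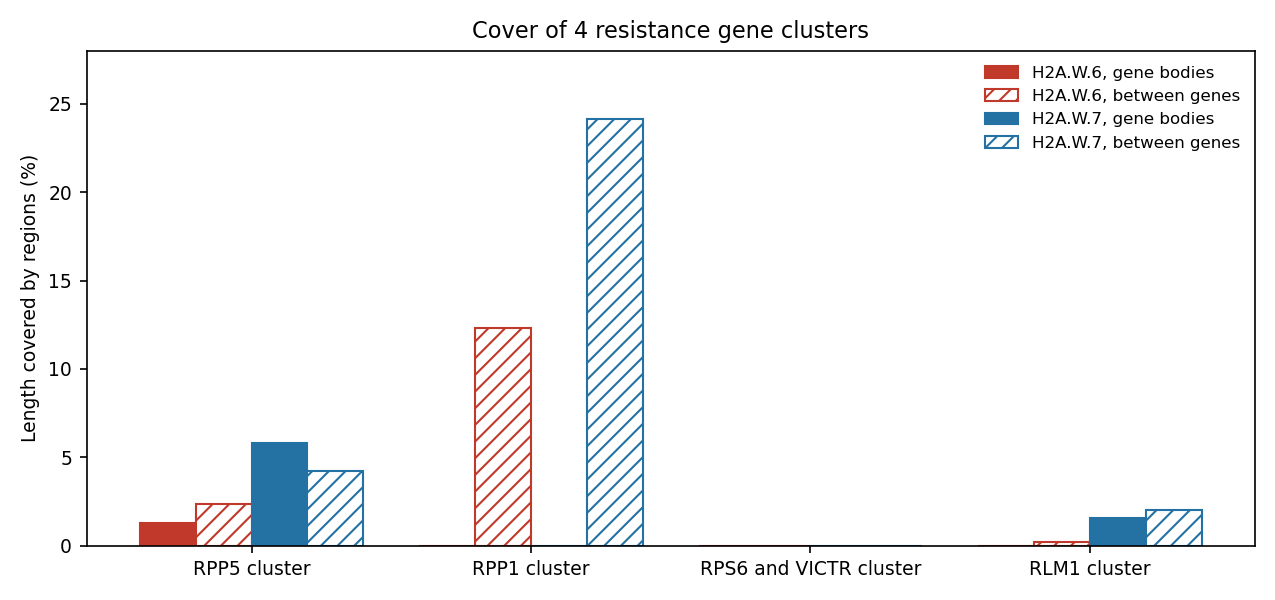
Share of length covered, in percent, for the bodies of the cluster genes and for the stretches beside and between them, in 4 resistance gene clusters and for both variants. Gene bodies carry H2A.W.6 in the RPP5 cluster alone among these 4, and the RPP1 cluster has cover between genes without any in the bodies. Over all arm protein-coding genes, 2.51% had any H2A.W.6 base and 4.99% any H2A.W.7 base.

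Most other receptor genes of a fixed list met neither variant, as was the case for most arm protein-coding genes. Of 28 NLR genes outside the cluster, the wider family of nucleotide-binding receptors, 1 had any H2A.W.6 base and 4 had any H2A.W.7 base, and the median cover was 0%, beside 2.51% and 4.99% of all arm protein-coding genes with any base. They were AT1G58602 with 1.14% H2A.W.6 and 2.31% H2A.W.7, the helper receptor gene ADR1-L1 with 7.91% H2A.W.7, LAZ5 with 5.17% H2A.W.7 and AT4G19510 with 0.129% H2A.W.7. For AT4G19510 this was 7 bp. At an overlap of 100 bp the counts were 1 and 3, beside 2.38% and 4.21% of arm protein-coding genes. AT4G16920, with 30.6% H2A.W.7, was above all 28. Of 16 genes of the defence pathway of SNC1 and its regulators, 0 had any base of either variant. The shares of 2.51% and 4.99% of arm protein-coding genes apply here too, and with 16 genes a count of 0 is near them. For PR1 and AT2G14760, which lie in the centromeric part, the centromeric lists were used. The 16 genes include EDS1 and PAD4, which relay signals from TIR receptors, the F-box gene CPR1, which limits SNC1 protein, and the chromatin gene DDM1. With 1 kb on each side, 2 of the 16 met H2A.W.6 and 5 met H2A.W.7, beside 6.16% and 18.7% of all arm protein-coding genes. The sets are not alike, since 14 of the 16 lie in the arms and AT2G14760, 1 of the 5, does not. Of the 2 with H2A.W.6, ATXR7 had 5 bp. AT2G14760 had the most H2A.W.7 among the 16, with 629 bp. CPR1 had 200 bp and 510 bp in its body and sides together, all of it outside the body, and MOS1, known as a regulator of SNC1 expression, had 475 bp of H2A.W.7.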

How the data were processed

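Leaf chromatin digested with micrococcal nuclease for 15 min was immunoprecipitated and sequenced from both ends over 50 bp, per the labels' protocols. The authors deposited lists of region positions for the arms and the centromeric part, without heights. The submitters' processing notes name TAIR10 and bedtools, while aligner, caller, threshold and use of the control were not given in the sources used here. Genes came from a RefSeq table of the TAIR10.1 assembly, whose coordinates are not printed. Moving the table by up to 10000 bp either way lowered the cover of arm pseudogenes in both lists.

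Covered bases, overlaps of 1 bp or more and shared bases were computed in Python 3.11.15 with numpy 2.4.6 and pandas 2.3.3 and tested on simulated regions. The border of the centromeric part on chromosome 4 was taken at 6.1 Mb. Genes were counted at any base covered and, as a separate count, at 50% or more of the body. All 8 genes, genes of the span that met a region and list genes with cover were to be named. The cluster genes and lists were chosen with earlier results of these data known. Exons, strand and read uniqueness were not analysed here.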

Additional observations from a re-analysis of the deposited data

How the results depend on the processing

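Of 111 alternative values for 18 results, 72 stayed within 1.5 times the value given or, for shares of arm genes, within the 95% Wilson interval, 37 moved further and 2 changed direction. Some of the 72 could not move, such as the count of 0 genes with 50% or more covered when regions were shortened or left out. The tally is therefore not a measure of stability. H2A.W.7 covered more of the span than H2A.W.6 under each alternative run. With regions at or above the median length, H2A.W.6 covered 625 bp of the span and 0 bp of the bodies, H2A.W.7 covered 1895 bp of the bodies, 455 bp were shared, 0 and 1 of the 8 genes and 0 and 1 of the 28 NLR genes had any base of H2A.W.6 and H2A.W.7, and so had 1.38% and 3.09% of arm protein-coding genes. With regions of 300 bp or more, H2A.W.6 covered 970 bp of the span and 345 bp of the bodies, H2A.W.7 covered 1895 bp of the bodies, and the counts were 1 and 1 of the 8 genes, 0 and 2 of the NLR genes and 1.65% and 3.74% of arm genes. With 1 kb on each side of the body, 3 and 8 NLR genes and 6.16% and 18.7% of arm genes met H2A.W.6 and H2A.W.7. For H2A.W.7 the share of arm genes was 4.21% at an overlap of 100 bp and 4.51% with regions trimmed by 50 bp, 1 of the 8 genes passed a limit of 10% of the body, and a flank of 10 kb gave 2890 bp between genes. Without the densest run, an alternative chosen after seeing the data, 255 bp of H2A.W.6 and 314 bp of H2A.W.7 remained, a difference of 59 bp. The H2A.W.7 cover of the bodies minus that of the stretches, 1.56 percentage points, turned to -0.26 with a flank of 10 kb and -3.31 without the regions in AT4G16920. It was 0.130 with either length limit, 2.45 with regions merged within 500 bp and 0.939 with a flank of 2 kb. For H2A.W.6 this difference of -1.07 was -1.66 with regions at or above the median length, -0.711 with a flank of 2 kb and -1.77 without the regions in AT4G16920. The comparisons of bodies with stretches were added after seeing the data, and the cause was not tested. The gene table holds no descriptions, so a wider list of receptor genes by description was not run. No paired analysis was possible because each immunoprecipitation was 1 library. Depth is unknown, so absence of a region does not show absence of the variant.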

Other observations

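Just beyond the cluster, on the side of RLM3, both variants met again at the pseudogene AT4G17005. H2A.W.7 covered 100% of its 367 bp with a region at 9574841 to 9575415, and H2A.W.6 covered 59.1% with a region at 9574921 to 9575145 that lay wholly inside the former. A further H2A.W.7 region at 9572936 to 9573165 met no annotated gene and no H2A.W.6. On the lower side the nearest regions outside the span were far, the closest of H2A.W.7 at 43195 bp and that of H2A.W.6 at 286545 bp.

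In 10 windows of the span length, 5 on each side, H2A.W.6 cover ranged from 0% to 10.3% and H2A.W.7 cover from 1.25% to 7.64%. H2A.W.6 was absent from the 3 windows next to the cluster on the lower side. More cover than in the cluster was found in 5 of the 10 for H2A.W.6 and in 4 of the 10 for H2A.W.7.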
